A study of Mus musculus with 4 samples.

Results

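Transcript levels of 10 mouse aldehyde dehydrogenase genes (Aldh1a1, Aldh1a2, Aldh1a3, Aldh1a7, Aldh2, Aldh1b1, Aldh3a2, Aldh3b1, Aldh7a1 and Aldh9a1) were examined on 4 two-colour Agilent arrays of BCR-ABL1-transformed cell lines. The genes were found through the RefSeq accession of each probe and were covered by 11 of the 55681 probes on the array, 2 for Aldh7a1 and 1 for each of the others. The family was picked because of the high Aldh1a7 ratio in the comparison of mutant with wild-type cells, so the ratios of its members in that comparison are given here as a description; where the fit over all genes calls one of them, the call comes from the values that chose the family and supports nothing.

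All lines were grown out from fetal liver of a mixed C57BL/6J x CD-1 background that had been given the p185 form of BCR-ABL1, a fusion tyrosine kinase of acute lymphoblastic leukaemia, and this transgene is in both genotypes. The R/R lines are homozygous for Cdk4 R24C and Cdk6 R31C, knock-in substitutions known to stop INK4 inhibitors from binding these kinases, and the controls are wild type (WT). Each R/R line is a single clone that became immortal spontaneously, so a value of 1 clone holds both its genotype and its own history, and clones 1 and 2 share a number in their clone names that clone 3 does not. On 3 arrays an R/R clone was labelled with Cy5 and a pool of WT RNA with Cy3, and on the fourth the dyes were reversed for an R/R pool. The labels do not say what the pools were made of, whether the R/R pool held the 3 clones or whether the clones came from separate embryos, so p-values measure only the spread between these clones. All arrays share the WT pool. Ratios below are log2 values of the R/R channel relative to the WT channel, turned on the dye-swapped array so that a positive value means higher in R/R. Over all genes tested the arrays correlated at r of 0.23 to 0.56.

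Aldehyde dehydrogenases oxidise aldehydes to carboxylic acids with NAD or NADP as the cofactor. The ALDH1A enzymes are cytosolic and make retinoic acid from retinaldehyde, ALDH2 and ALDH1B1 work on acetaldehyde and related aldehydes in mitochondria, and other members take fatty aldehydes or intermediates of lysine breakdown and carnitine synthesis. Aldehyde dehydrogenase activity is widely used to sort haematopoietic stem and progenitor cells.

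Between 42.8% and 53.4% of spots per channel were well above background. All 11 early B-lineage markers checked, among them Cd79a, Vpreb1, Igll1 and Pax5, were well above background in every channel of every array. The log2 of their added signals, the measure used for each marker sum below, was 16.88 to 17.49 in R/R channels and 16.99 in the WT pool. The brightest marker, Vpreb1 (15.8 to 16.5 in R/R), set most of this sum. Dntt stood at 12.06, 9.06 and 12.59 in clones 1, 2 and 3. Rag1 (7.99, 6.40 and 8.55) and Rag2 (8.35, 6.21 and 7.95) were also lowest in clone 2. Of the clones, Ebf1 and Pax5 were lowest in clone 3 and the remaining markers in clone 2. Of 10 hepatocyte markers 7, among them Alb, Afp and Apoa1, were not well above background in any channel. Apoa2 (8.62 to 8.88 in R/R, 8.73 in WT) and Tat (6.70 to 7.11 in R/R, 6.87 in WT) were in every channel. The summed signal of the hepatocyte list was 10.0 to 10.1 in R/R and 10.1 in WT. Of 6 myeloid markers 4, Itgam, Csf3r, Csf1r and Elane, were detected in all R/R channels. The sum of the list was 15.7 in clone 3, 16.1 in clone 1, 16.7 in clone 2, 16.01 in the R/R pool and 16.5 in WT, and Mpo was not well above background anywhere. Of 6 erythroid markers only Hbb-bt was detected, at 10.8 to 11.7 in R/R and 13.1 in WT. Of 6 megakaryocyte and mast cell markers none was detected in all R/R channels (sums 8.54 to 8.73, WT 8.64). Of 6 T and NK markers Cd3e, Cd4 and Klrb1c were (sums 10.0 to 10.4, WT 9.98), and of 7 endothelial and stromal markers Pecam1, Kdr and Col1a2 were (sums 10.2 to 10.4, WT 10.3).

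Aldh1a7 was the member with by far the highest R/R to WT ratio. The gene is a rodent paralog of Aldh1a1 next to it on chromosome 19, and its cytosolic product is known to oxidise acetaldehyde and to act poorly on retinaldehyde. The log2 ratio was 1.80 in clone 1, 2.58 in clone 2, 1.39 in clone 3 and 2.20 in the R/R pool, which is 3.49-, 5.96-, 2.62- and 4.59-fold. Every R/R channel thus lay above the WT pool, with clone 2 highest and clone 3 lowest. The fitted log2 ratio, the average of the clone mean and the pool value, was 2.06 ± 0.23 (SE, 3 clones and 1 pool), or 4.17-fold. Each SE of a fitted value here is limma's moderated SE, which draws the spread of 1 gene towards that of all genes. The clones had a mean of 1.92 ± 0.60 (SD, n = 3). Only 2 of the 20045 genes tested had a higher fitted value, which is how the gene came to be examined. In these bulk RNA samples, more cells with the transcript and more transcript per cell cannot be told apart.

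The signals behind this ratio were bright in both genotypes. In the 4 hybridisations of the WT pool the Aldh1a7 probe gave log2 signals of 11.2, 11.3, 11.1 and 11.2, a technical SD of 0.10. The R/R signals were 13.0 in clone 1, 13.9 in clone 2, 12.5 in clone 3 and 13.4 in the R/R pool. The SD over the clones was 0.72, which holds differences between clones as well as technical spread. The clone range of the Aldh1a7 ratio, 1.18, was at percentile 96.7 of all genes tested. No spot of any member was saturated. The early B-lineage and myeloid sums given above also differed between clones. Clone 2 was lowest in the first and highest in the second, but not for every marker of either list. The part of these sums in the Aldh1a7 values was not tested.

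**Figure D1:**
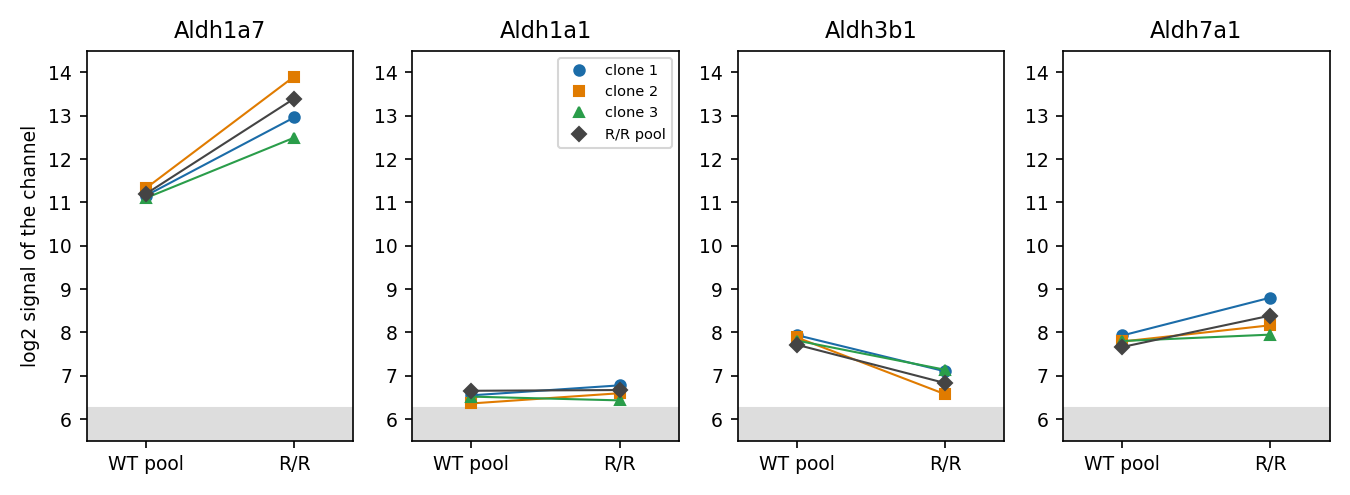
Log2 signal of the WT pool channel and the R/R channel on each array (lines join the channels of 1 array) for Aldh1a7, Aldh1a1, Aldh3b1 and the brighter Aldh7a1 probe; the grey band reaches up to the highest of the per-channel lowest signals called well above background. Aldh1a7 starts from 11.1 to 11.3 in the WT pool and reaches 12.5 to 13.9 in R/R, while Aldh1a1 stays between 6.36 and 6.78 in both.

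Aldh1a1, the nearest relative of Aldh1a7 and the main retinaldehyde dehydrogenase of many adult tissues, gave ratios near 0. Its log2 ratios were 0.23 in clone 1, 0.24 in clone 2, -0.09 in clone 3 and 0.02 in the pool, on both sides of 0. The fitted value was 0.07 ± 0.11 (SE). The probe was well above background in all channels, but dim, with a WT log2 signal of 6.52 ± 0.12 (SD, 4 hybridisations) against a lowest detected signal of 6.09 to 6.14 in the WT channels. With the scanner software's own ratios clones 1 and 2 stood at 0.74 and 0.67, clone 3 at -0.33 and the pool at -0.02. The transcripts are similar, the probe sequences were not used here, and cross-hybridisation between the pair was not measured.

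The upstream sequences of the pair are shown because the genes lie side by side and their proximal promoters are alike in sequence. They are the 250 bases before the RefSeq start (build GRCm38.p6), on the strand of the gene; for Aldh1a1, which has 2 starts in the table, the downstream one is shown. Capitals mark matches to the 6 motifs searched on both strands, which were the TATA box core TATAAA, the CCAAT box, the octamer ATGCAAAT bound by POU factors, AGGTCA (nuclear receptor half-site, to which retinoic acid receptors bind in pairs), TTCNNNGAA (bound by STAT factors) and TGACNNNGC (antioxidant response core). No matches in the member windows overlapped one another.
Aldh1a7, chr19:20727557-20727806, minus strand: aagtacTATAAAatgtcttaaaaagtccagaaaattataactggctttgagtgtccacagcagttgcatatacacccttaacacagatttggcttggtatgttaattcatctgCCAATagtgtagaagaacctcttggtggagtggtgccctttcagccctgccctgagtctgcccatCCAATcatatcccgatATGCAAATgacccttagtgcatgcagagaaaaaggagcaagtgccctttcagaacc
Aldh1a1, chr19:20601718-20601967, plus strand: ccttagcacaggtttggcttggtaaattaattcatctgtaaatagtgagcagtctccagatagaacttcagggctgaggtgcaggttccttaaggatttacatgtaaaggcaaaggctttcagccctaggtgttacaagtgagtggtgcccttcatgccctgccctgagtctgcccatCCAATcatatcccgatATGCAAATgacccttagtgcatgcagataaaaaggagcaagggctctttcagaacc
In a global alignment 176 bases were identical, 70.4% of the window, and 65 bases in a row, from 94 to 30 bases before the start in both genes, were the same. That run holds a CCAAT match at 72 to 68 bases and an octamer match at 56 to 49 bases before the start in both genes. Over all 28 pairs of the 8 member windows, the median identity was 52.0% and the lowest 45.6%. The octamer was found in 1.6% of the 32851 RefSeq windows of this length and CCAAT in 33.8%. The Aldh1a2 window held both as well, the octamer at 84 to 77 and CCAAT at 36 to 32 bases before the start. Aldh1a7 had a further CCAAT at 137 to 133 and TATAAA at 244 to 239 bases before the start, neither of which was found in the Aldh1a1 window. The window before the other Aldh1a1 start held none of the 6 motifs and was 56.0% identical to that of Aldh1a7. The matches are letters in a window, variants of the motifs were not searched, and nothing was measured as a binding site.

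The other ALDH1A genes, Aldh1a2 and Aldh1a3, encode retinaldehyde dehydrogenases that are best known from the embryo. Aldh1a2 was detected above background in clone 2 alone, with ratios of -0.04, 0.13, -0.01 and 0.01 in clones 1, 2 and 3 and the pool. Aldh1a3 was well above background in clones 1 and 2 and, of the WT hybridisations, only in that of the pool array. Its ratios were 0.15, 0.34 and 0.23 in the clones and -0.29 in the pool, so the sign followed the Cy5 channel on all 4 arrays. Neither gene met the detection filter, and no fitted value is given for them.

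**Figure D2:**
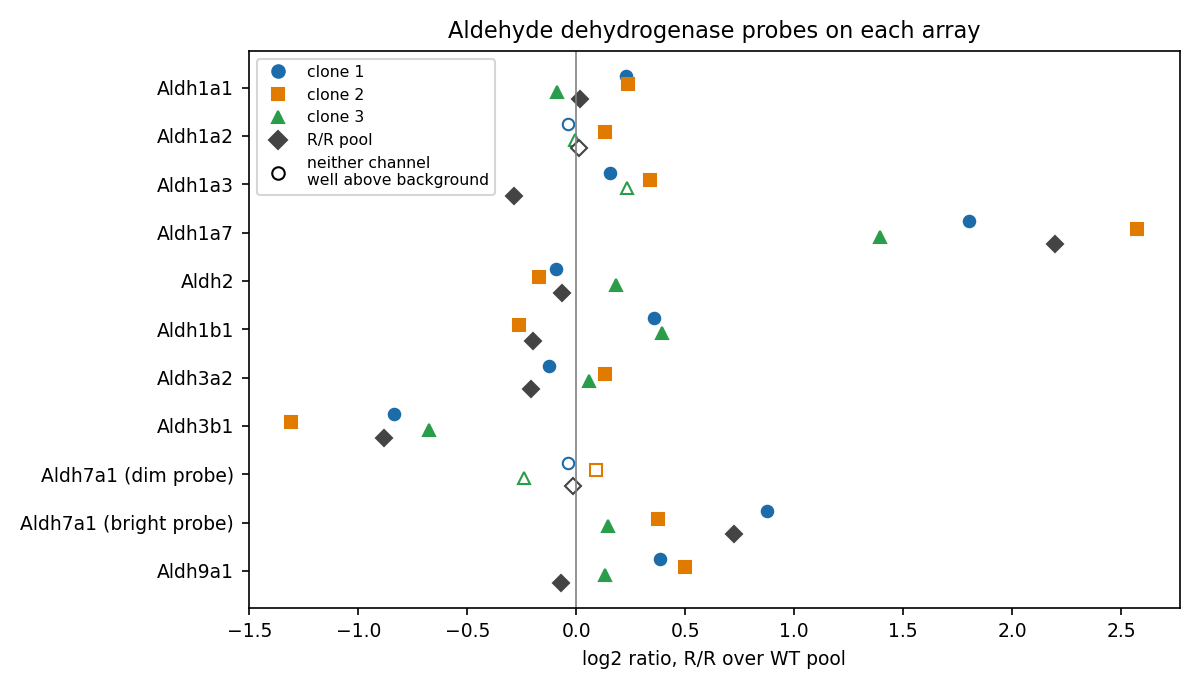
Log2 ratio of R/R over WT for each of the 11 probes of the 10 genes on each array; open symbols mark arrays on which neither channel was well above background. Aldh1a7 stands alone on the right at 1.39 to 2.58, Aldh3b1 on the left at -1.31 to -0.67, and 8 probes take both signs.

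The mitochondrial enzymes showed small ratios of both signs. Aldh2, the main enzyme of acetaldehyde clearance, gave -0.09 in clone 1, -0.17 in clone 2, 0.18 in clone 3 and -0.06 in the pool, with a fitted value of -0.05 ± 0.11 (SE). Aldh1b1 gave 0.36 in clone 1, -0.26 in clone 2, 0.39 in clone 3 and -0.20 in the pool. Clones 1 and 3 thus lay on one side of 0 and clone 2 and the pool on the other, and the fitted value was -0.02 ± 0.15. Both probes were well above background in all channels.

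Of the genes for fatty aldehyde enzymes, Aldh3b1 had the lowest ratio of the family. Its product is a membrane-attached enzyme that oxidises medium- and long-chain aldehydes, including those from lipid peroxidation. The ratios were -0.84 in clone 1, -1.31 in clone 2, -0.67 in clone 3 and -0.88 in the pool, all below 0 and farthest from it in clone 2. The fitted value was -0.91 ± 0.14 (SE), a 1.88-fold lower level in R/R, and 252 genes had a larger absolute value. The WT log2 signal was 7.94, 7.88, 7.81 and 7.71 and the R/R signal 7.10, 6.57, 7.14 and 6.83. The groups of channels did not overlap, but the WT values are repeat hybridisations of the same pool. How many genes separate in this way was not counted, so nothing is read from the separation. Over all genes, 16.2% were below 0 on every array, as Aldh3b1 was. The scanner software's ratios placed Aldh3b1 lower still, from -2.23 in clone 2 to -1.12 in clone 3, and at -1.61 when fitted. Aldh3a2, which encodes the fatty aldehyde dehydrogenase of the endoplasmic reticulum, gave -0.13, 0.13, 0.06 and -0.21 in clones 1, 2 and 3 and the pool, with a fitted value of -0.09 ± 0.10 (SE).

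The window before the Aldh3b1 start is printed because it is the member that lay lowest, on the same chromosome as Aldh1a7, and its motif matches were of another kind.
Aldh3b1, chr19:3929779-3930028, minus strand: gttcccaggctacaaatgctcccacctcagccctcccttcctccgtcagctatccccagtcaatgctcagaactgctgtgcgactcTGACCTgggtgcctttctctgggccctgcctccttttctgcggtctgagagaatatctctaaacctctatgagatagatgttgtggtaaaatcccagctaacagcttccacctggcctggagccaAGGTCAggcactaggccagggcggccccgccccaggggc
It held 2 AGGTCA matches, at 164 to 159 (on the opposite strand) and at 39 to 34 bases before the start, and none of the other motifs. AGGTCA was found in 14.0% of all windows. Of the 10 genes, 7 had a window in the RefSeq table.

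Aldh7a1, which acts in lysine breakdown, had the second highest fitted value. Its brighter probe gave 0.87 in clone 1, 0.37 in clone 2, 0.15 in clone 3 and 0.73 in the pool, all above 0, with clone 3 nearest to it. The fitted value was 0.60 ± 0.15 (SE), or 1.51-fold. The other Aldh7a1 probe, annotated to another RefSeq transcript, was not well above background in any channel, so the ratio rests on 1 probe. Aldh9a1, whose product oxidises aminoaldehydes and serves carnitine synthesis, gave 0.38, 0.50 and 0.13 in the clones but -0.07 in the pool. All clones lay above 0 and the dye-swapped pool below it; the fitted value was 0.13 ± 0.11 (SE) with a dye term of 0.20, and the clones alone had a mean of 0.34 ± 0.19 (SD, n = 3).

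Of the 10 genes 8 passed the detection filter, with 4 fitted values above 0 and 4 below. Their median was 0.03 against -0.02 over all 20045 genes. Aldh1a7 and Aldh7a1 were above 0 on all 4 arrays and Aldh3b1 below; over all genes, 14.6% were above and 16.2% below 0 on all 4, 30.8% in all. One member, Aldh1a7, was among the 30 genes called higher (limma, Benjamini-Hochberg adjusted p under 0.05; 0.15% of genes) and no member among the 75 called lower (0.374%). Nothing is read from these counts, since the family was chosen from this comparison. The Aldh1a7 call was absent without clone 1, where the fitted log2 ratio was 2.09, and in 4 of the other settings tried. The ratio of the pool lay between the lowest and the highest clone for 6 of the 8 members, against 54.9% of all genes. The median clone SD was 0.26 for the 8 members and 0.17 for all genes.

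**Figure D3:**
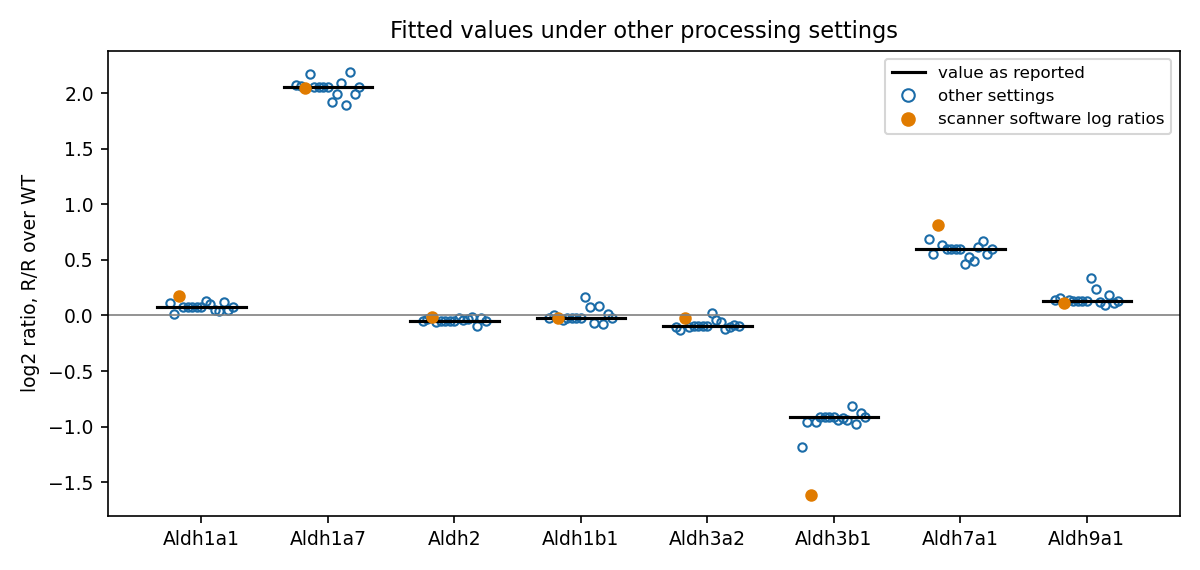
Fitted log2 ratio of R/R over WT for the 8 members that passed the detection filter, as reported (black line) and under 15 other settings (circles), with the scanner software's ratios filled. Aldh1a7 stays between 1.90 and 2.19, and Aldh3b1 moves to -1.61 with the scanner ratios.

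The other members of the superfamily were measured in the same fit, and none was called. Of 11 such genes 8 passed the detection filter, 5 with values above 0 and 3 below, a median of 0.05; 3 had an unadjusted limma p under 0.05, where 15.4% of all genes did. The lowest was Aldh6a1, which encodes the methylmalonate semialdehyde dehydrogenase of valine breakdown, at -0.57, -0.69, -0.76 and -0.57 in clones 1, 2 and 3 and the pool. These 4 values were close together, and the fitted value was -0.62 ± 0.09 (SE, limma adjusted p = 0.0723). Aldh18a1, which makes the proline precursor pyrroline-5-carboxylate, stood at -0.57 ± 0.18 (adjusted p = 0.236), from -0.96 in clone 3 to -0.07 in clone 2. Aldh4a1, which works in the opposite direction in proline breakdown, stood at 0.37 ± 0.14 (adjusted p = 0.296). Aldh16a1 stood at 0.22 ± 0.10 (adjusted p = 0.384).

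Genes that supply retinaldehyde, bind retinoids or respond to retinoic acid did not include a called gene either. Of 32 genes 20 were measured, 8 above 0 and 12 below, with a median of -0.05. Of the 20, 7 had an unadjusted limma p under 0.05, against 15.4% of all genes. Rdh10, the retinol dehydrogenase that makes retinaldehyde, stood at 0.80 ± 0.21 (adjusted p = 0.185), led by clone 1 at 1.56 with the other arrays at 0.58 to 0.69. Tgm2, a transglutaminase gene induced by retinoic acid in many cells, stood at 0.57 ± 0.10 (adjusted p = 0.108), and a second Tgm2 probe gave 0.54 to 0.89. The retinoic acid receptor gene Rara stood at -0.49 ± 0.11 (adjusted p = 0.142), with a second probe at -0.44 to -0.05. Fabp5, for a retinoic acid carrier, stood at 0.69 ± 0.20 (limma adjusted p = 0.217), from 0.04 in clone 3 to 1.08 in clone 1.

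Among 23 alcohol dehydrogenase and aldehyde reductase genes, 14 were measured and none was called, with 10 above 0, 4 below and a median of 0.10. Of the 14, 2 had an unadjusted limma p under 0.05, against 15.4% of all genes. Cbr3, a carbonyl reductase gene, stood highest at 1.28 ± 0.19 (limma adjusted p = 0.0747), with 0.77, 1.16, 1.73 and 1.33 in clones 1, 2 and 3 and the pool; clone 3 was highest here and lowest for Aldh1a7. It was called without clone 3 (1.15, adjusted p = 0.0293), with scaling and without the dye term, the adjusted p ranging from 0.00609 to 0.144 over the alternatives, and the scanner ratios gave 2.07. Esd, for the formaldehyde-clearing S-formylglutathione hydrolase, stood at 0.29 ± 0.09 (limma adjusted p = 0.236), from 0.02 in clone 3 to 0.46 in the pool. Cbr1 stood at 0.32 ± 0.18 (adjusted p = 0.446) and Akr7a5 at 0.33 ± 0.19 (adjusted p = 0.453). Cbr1 was below 0 in clone 3 (-0.11) and Akr7a5 in clone 2 (-0.17). The aldo-keto reductase gene Akr1c13 varied most, from -3.48 in clone 1 to 0.75 in clone 3; it was named after its values were seen.

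Of 21 genes for sources and other routes of aldehydes, 14 were measured, 7 on either side of 0 with a median of -0.004. None was called, and 5 had an unadjusted limma p under 0.05, against 15.4% of all genes. The methylglyoxal-clearing glyoxalase genes Glo1 and Hagh stood at -0.49 ± 0.11 and -0.53 ± 0.14 (adjusted p of 0.142 and 0.193), both below 0 on all 4 arrays. Tmlhe, the first enzyme gene of carnitine synthesis, in which Aldh9a1 acts later, stood at 0.55 ± 0.18 (adjusted p = 0.243), from -0.06 in clone 1 to 0.79 in clone 2. Gcdh, of lysine breakdown as is Aldh7a1, stood at 0.25 ± 0.09 (adjusted p = 0.292).

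**Figure D4:**
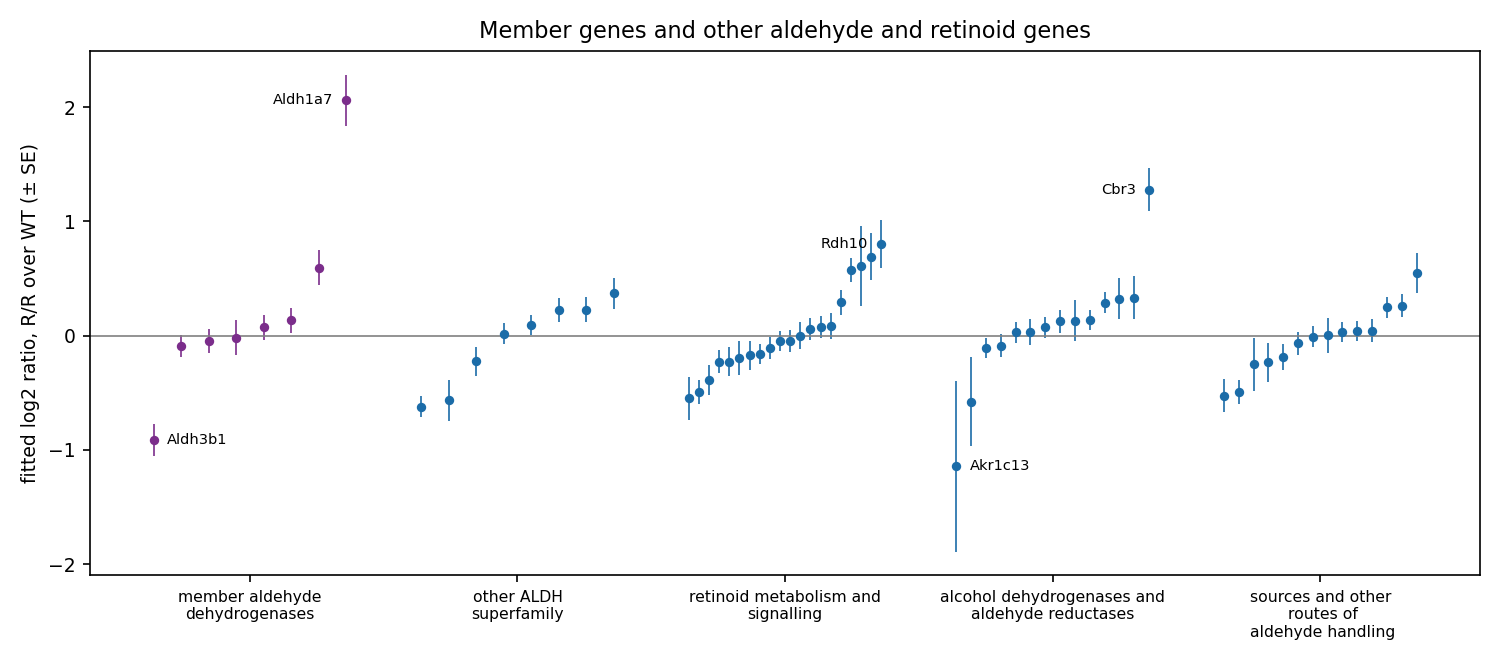
Fitted log2 ratio of R/R over WT with its SE for the 8 measured member genes and the measured genes of the 4 related lists, sorted within each. Aldh1a7 at 2.06 and Cbr3 at 1.28 stand highest, and most other genes lie within 0.8 of 0.

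On chromosome 19 the nearest measured neighbours of Aldh1a7, Aldh1a1 and Zfand5, gave lower ratios than it on every array. In the RefSeq order Anxa1, Aldh1a1, Aldh1a7, Tmc1, Zfand5 and Gda follow each other, with 1 further gene model between Tmc1 and Zfand5. Anxa1, the annexin A1 gene, gave 0.09, -0.04, 0.32 and 0.09 in clones 1, 2 and 3 and the pool. Tmc1 was not well above background. Zfand5, a zinc finger gene, gave 0.51, 0.58, 0.42 and 0.39 (fitted 0.44 ± 0.09, limma adjusted p = 0.130), with a second detected probe at 0.12 to 0.50. Gda, which encodes guanine deaminase, gave 2.19 in clone 1, 2.39 in clone 2, -0.09 in clone 3 and 2.04 in the pool. Clones 1 and 2 and the pool thus lay near the Aldh1a7 values, and clone 3, at 1.39 for Aldh1a7, lay at the WT level. The fitted Gda value was 1.77 ± 0.48 (adjusted p = 0.193). A dimmer second Gda probe was not well above background in WT on any array. These neighbours were chosen with the Aldh1a7 values known.

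**Figure D5:**
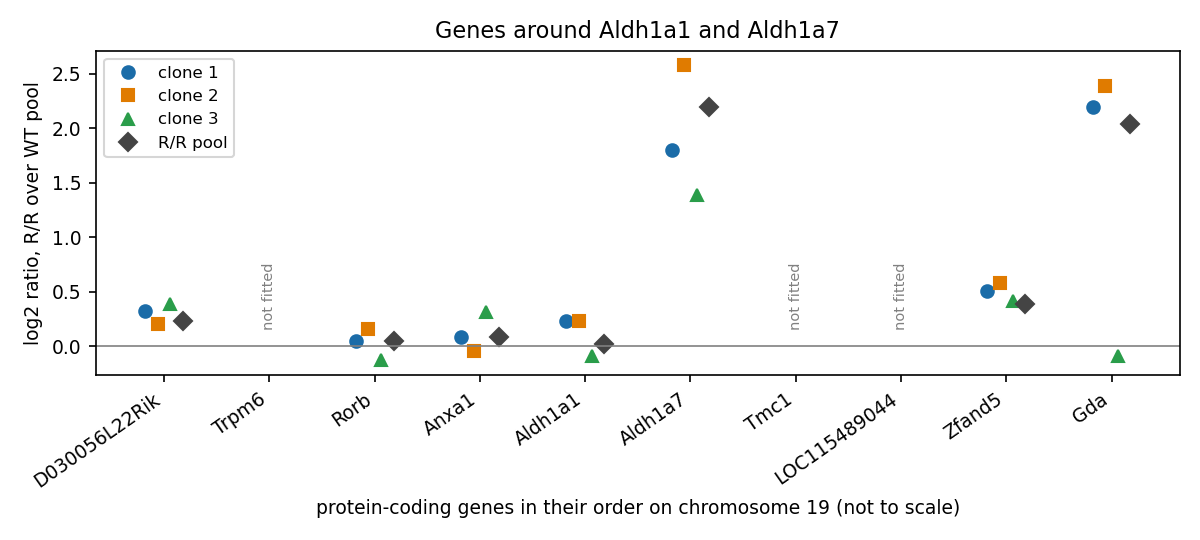
Log2 ratio of R/R over WT on each array for the protein-coding genes around Aldh1a1 and Aldh1a7 in their order on chromosome 19, not to scale. Aldh1a7 and Gda stand above 1 in clones 1 and 2 and the pool, and in clone 3 only Aldh1a7 does.

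Distance over the 4 array ratios was ranked only among genes with a symbol, clone-like and predicted-gene names left out. Of these, the genes most like Aldh1a7 were Pctp, Ly6f, Pls3, Map6 and Gda, at Euclidean distances of 1.28, 1.43, 1.45, 1.49 and 1.55. Pctp, the phosphatidylcholine transfer protein gene, came nearest with 1.19, 1.76, 1.36 and 1.42 in clones 1, 2 and 3 and the pool, highest in clone 2 as Aldh1a7 was. Ly6f, for a GPI-anchored surface protein, gave 2.24, 2.08, 2.66 and 2.10, with clone 3 highest. Pls3, the plastin 3 gene, gave 1.52, 1.47, 1.70 and 1.36, but WT was detected above background on 1 of 4 arrays, so these ratios and the distance rest on a WT signal near background (mean log2 signal 6.30). Map6, for a microtubule-stabilising protein, gave 0.52, 2.60, 0.64 and 2.08, and its second probe 0.61 in clone 2 and at most 0.18 elsewhere.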

How the data were processed

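Per the file headers, the deposited intensity values are medians over the pixels of a spot and of its surroundings, read by Agilent Feature Extraction 11.5.1.1, and the processed intensities are background-subtracted and dye-normalised. The deposited log10 values are log10 ratios of processed Cy5 over Cy3. The log2 ratios in the authors' value table, whose making is not stated, match no probe name; by position they followed the ratios computed here (absolute r of 0.9888 to 0.9965), with the pool array turned to R/R over WT. Their column medians were 0, 0.003971, -0.00109 and -0.001439, how they were centred stays unknown, and they were used for counts of calls only.

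With limma 3.58.1 in R 4.3.3, median intensities had their background corrected by normexp (offset 50), followed by loess within each array, control spots having no weight. Between 210 and 265 outlier spots per array were dropped, and replicate spots averaged. Probes were named through the RefSeq accession (27656 of 55681). Probes well above background in R/R or WT on at least 3 of 4 arrays and measured on all 4 were kept. The brightest per gene gave 20045 genes, 12296 with a symbol. The rest were known by accession, probe or genomic interval, and shares and medians over all genes include them. All 20045 were tested with genotype and dye terms (2 residual degrees of freedom, from the clones). The WT pool adds none of its own spread. Channel signals were taken after loess and Aquantile. All arrays were on 1 slide, and their number limits the precision. Tested on simulated data for this comparison, with 66 or 67 of 20045 genes changed at each size, the fit recovered 0% of 1.5-fold, 53.7% of 2-fold and 83.3% of 4-fold changes, so a smaller change that was not called is not shown to be absent.

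Promoter windows and gene names came from RefSeq (GRCm38.p6); protein identity was not computed. 1 planned marker is not reported here. Members, lists and tests were chosen with earlier results of these data known. Named were all members, of each list the 4 genes with the smallest p, and the 5 genes nearest to Aldh1a7. The last were taken only from genes with a symbol that was not a clone-like or predicted-gene name. Akr1c13 and the neighbours on chromosome 19 were chosen after their values were seen. Alternatives were offset 16, median centring, scanner ratios, scaling, other filters and probe rules, an intensity trend, each clone left out, a fit on the clones alone or without the dye term, the average of clones 1 and 2, the authors' value table and a threshold of 0.10.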

Additional observations from a re-analysis of the deposited data

How the results depend on the processing

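Of 120 member values under 15 alternatives, 118 moved by less than the SD over the clones of that gene, which was 0.60 for Aldh1a7. The others were Aldh3b1 with the scanner ratios (-1.61) and Aldh9a1 on the clones alone (0.34). The other filters, the probe rules and the intensity trend left every member value as it was, so their share of the 118 is no check on the values. Aldh1a7 ranged from 1.90 without clone 2 to 2.19 without clone 3 and was not called in 5 settings, namely without clone 1, with median centring, the scanner ratios, scaling and no filter. Aldh1b1 changed sign in 5 settings (up to 0.16 on the clones alone) and Aldh3a2 in 1. The processed signals moved the WT log2 level of Aldh1a1 from 6.52 to 5.16.

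Over all genes, 30 were higher and 75 lower. Median centring gave 2 and 28, the scanner ratios 6 and 44, a fit with no dye term 490 and 650, the authors' values, tested spot by spot, gave 61 and 139, and a threshold of 0.10 gave 107 and 203. Scaling and every probe as its own feature each gave 49 higher. Leaving out 1 clone gave 11 to 88 higher and 47 to 176 lower, the lowest without clone 1 and the highest without clone 3. Of the lists, the other ALDH genes had 1 call, retinoid genes 3, alcohol dehydrogenases and reductases 1, and aldehyde sources 2 with no dye term; alcohol dehydrogenases and reductases had 1 with scaling and 0 to 2 with a clone left out. The cause of these differences was not tested.

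Each array paired an R/R sample with the WT pool, and the ratios were taken within arrays. The clones and the R/R pool were not treated as pairs, since the labels do not link them. The authors' table gave no value for single genes.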
